A study of Homo sapiens with 4 samples.

Results

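The genes described here are 36 named genes of cholesterol and fatty acid synthesis, measured in OVCAR-3, an established line of human ovarian carcinoma cells. Members were found by the gene symbol that the platform annotation gives to a transcript cluster, the set of probes that stands for a gene on the array. Of the 36, 33 had a cluster annotated to them alone, among 18417 such genes in all. HSD17B7 shares its only cluster with a pseudogene, and FDFT1 and ACSL3 were not analysed here.

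The series holds 4 Affymetrix arrays: 2 of cells labelled as overexpressing the human linker histone H1.3, and 2 of cells transfected with vectors that carried no H1.3. The design description gives an exon array for these samples, but the probe identifiers of the deposited values belong to a gene array's annotation, so which probes stand behind a value, that of H1-3 included, is uncertain. The (H) that follows H1.3 in the titles of these arrays is not explained there. Both groups were kept in RPMI-1640 with 20% fetal bovine serum, penicillin and streptomycin, and serum carries lipoprotein cholesterol into the cells of both. The labels call the replicates biological, but do not name the promoter, the vector, or whether the lines are clones or separate transfections, so the p-values cover only array-to-array spread, which may be technical.

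Cholesterol is built from acetyl-CoA through mevalonate to squalene, which is then closed into a ring and trimmed to the final sterol. Fatty acids are built from the same acetyl-CoA through malonyl-CoA, and are then lengthened, desaturated and activated with coenzyme A. Genes of both branches are activated by the sterol regulatory element-binding proteins (SREBPs), membrane-bound factors that SCAP escorts to the Golgi for cleavage and that the INSIG proteins hold back in the endoplasmic reticulum when sterols are plentiful. SREBP-2 acts mainly on the sterol branch and SREBP-1 mainly on the fatty acid branch.

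The arrays gave a median log2 value of 6.84 over the named clusters on every array, and 107 of 21214 named clusters passed at an adjusted p under 0.05. H1-3, the gene for H1.3, measured 7.47 and 7.69 in the arrays labelled H1.3, against 8.65 and 7.88 in the vector-only arrays. The level thus ran against the label, at a difference of -0.69 ± 0.24 (SE, limma adjusted p = 0.319). Leaving out vector-only replicate 1 gave -0.30 and leaving out replicate 2 of that group gave -1.07. Every direction below is that of the arrays labelled H1.3. Of 10 markers of OVCAR-3 and other epithelial ovarian tumour cells, all lay between 8.74 and 12.93 in the arrays labelled H1.3 and between 9.12 and 13.13 in the vector-only arrays. The adipocyte markers, whose cells make fat, stayed between 4.54 and 5.81 in the arrays labelled H1.3 and between 4.34 and 5.87 in the vector-only arrays, and none of the 5 passed. None of 6 hepatocyte, 6 leukocyte and 7 fibroblast markers passed either.

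Most steps of both branches were higher in the arrays labelled H1.3, and 2 of the 33 genes passed singly. MSMO1, a sterol-C4-methyl oxidase, rose 2.31-fold, and ACSL1, a ligase that activates long-chain fatty acids, rose 2.95-fold. Of the 33, 28 had a positive and 5 a negative difference, where 53.9% of all genes were positive. The median difference was 0.36 (log2), against 0.02 over all genes. Higher calls were 0.24% of the clusters tested and lower calls 0.264%, and no member was called lower. The values of the 2 groups did not overlap in 25 members, 23 of them higher with the H1.3 label and 2 lower, where 21.6% of all genes were without overlap and higher and 19.3% without overlap and lower. At an unadjusted p under 0.05, 18 members were higher, against 5.21% of clusters, and 2 were lower, against 6.34% of clusters. The members were chosen with earlier results of these data known, so these counts are not an independent test.

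**Figure D1:**
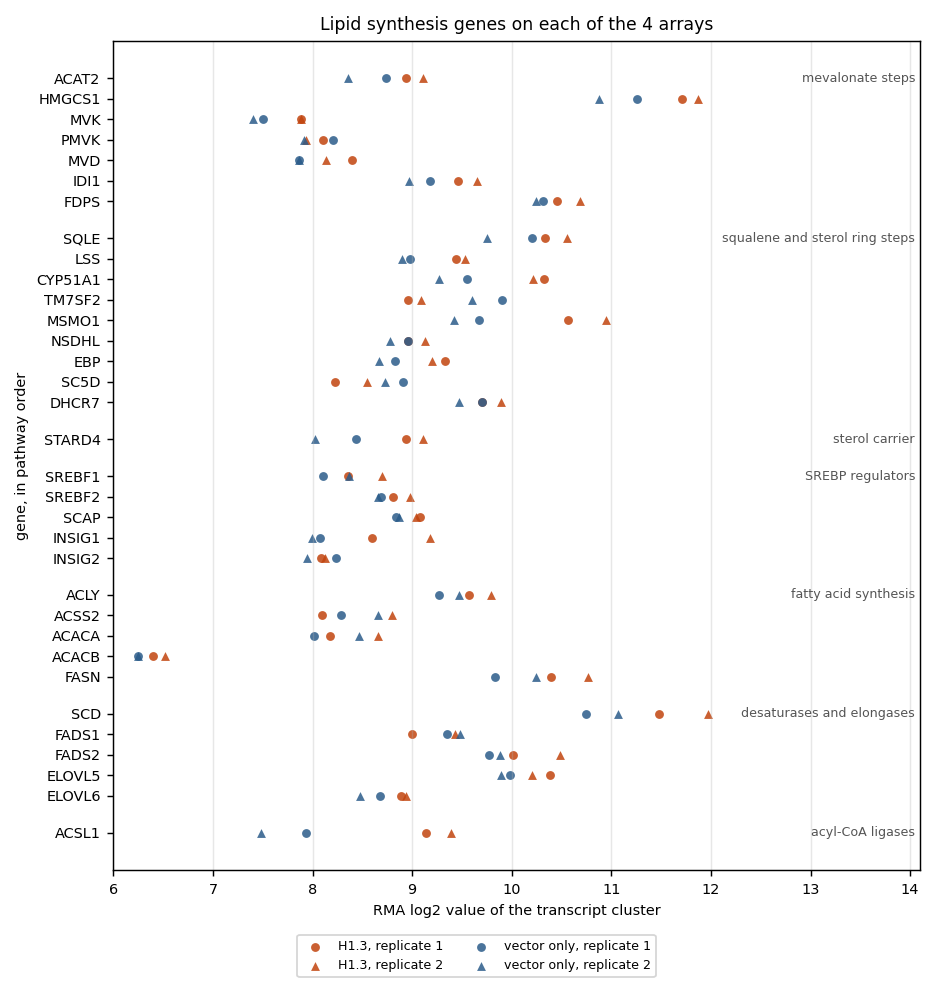
Log2 level of the 33 measured genes on each of the 4 arrays, in pathway order. The x axis is the deposited RMA log2 value, orange marks the arrays labelled H1.3 and blue the vector-only arrays, and circles and triangles mark replicates 1 and 2; in 23 genes both orange points lie right of both blue ones, and in TM7SF2 and SC5D both lie left.

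The first steps of the sterol branch lead from acetyl-CoA to farnesyl diphosphate, and 7 of 7 were measured. HMGCS1, which makes HMG-CoA, measured 11.71 and 11.87 in the arrays labelled H1.3, against 11.26 and 10.88 in the vector-only arrays. Its difference was 0.72 ± 0.16 (SE), or 1.65-fold, with a limma adjusted p of 0.117. MVK, the first kinase on mevalonate, measured 7.88 and 7.88 in the arrays labelled H1.3, against 7.50 and 7.40 in the vector-only arrays, a difference of 0.43 ± 0.12 (SE, limma adjusted p = 0.184). Neither gene's groups overlapped, and neither passed.

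ACAT2, which joins acetyl-CoA units, had a difference of 0.48, MVD, the decarboxylase that makes isopentenyl diphosphate, one of 0.41, and IDI1, its isomerase, one of 0.48. The groups were apart in each, with adjusted p from 0.203 to 0.291. FDPS, the farnesyl diphosphate synthase, measured 10.45 and 10.68 in the arrays labelled H1.3 and 10.31 and 10.24 in the vector-only arrays, a difference of 0.29. FDPS has a pseudogene, and the 2 clusters annotated to FDPS and FDPSP2 together differed by 0.17 and 0.20 with overlapping groups, so signal may be shared among them. PMVK, the second kinase on mevalonate, was the member of this arm without a positive difference. It measured 8.10 and 7.93 in the arrays labelled H1.3 and 8.20 and 7.91 in the vector-only arrays, so the groups overlapped around a difference of -0.04 ± 0.14 (SE, limma adjusted p = 0.954).

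From squalene to the finished ring, 9 of 11 genes were measured, 7 with a positive and 2 with a negative difference. MSMO1, which oxidises the methyl groups at carbon 4 of the sterol ring, measured 10.56 and 10.95 in the arrays labelled H1.3, against 9.67 and 9.42 in the vector-only arrays. Its difference of 1.21 ± 0.17 (SE) passed with a limma adjusted p of 0.0456, just under the threshold. The groups were 0.89 apart at their nearest values. The adjusted p was 0.0677 with arrays at one median, 0.0653 without the dimmer clusters, 0.210 with all clusters tested, 0.209 with a replicate block, and 0.433 to 0.802 with any 1 array left out. The difference itself then ran from 1.02 to 1.41.

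CYP51A1, the lanosterol demethylase of an earlier ring step, was measured by 2 clusters. The brighter gave 10.32 and 10.21 in the arrays labelled H1.3, against 9.55 and 9.27 in the vector-only arrays, a difference of 0.86 ± 0.14 (SE, limma adjusted p = 0.0631). The other gave 9.18 and 9.02 in the arrays labelled H1.3, against 8.38 and 8.29 in the vector-only arrays, a difference of 0.77 ± 0.12 (SE, limma adjusted p = 0.0620). Both clusters showed separate groups and a like size, and neither passed.

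The other steps of this arm with a positive difference were smaller. LSS, the cyclase that folds squalene epoxide into lanosterol, measured 9.44 and 9.53 in the arrays labelled H1.3, against 8.98 and 8.90 in the vector-only arrays, a difference of 0.55. SQLE, the squalene epoxidase, measured 10.33 and 10.55 in the arrays labelled H1.3, against 10.20 and 9.75 in the vector-only arrays, a difference of 0.47. In SQLE the groups were separate by only 0.13, and vector-only replicate 2 stood well below the rest. EBP, the isomerase that moves a ring double bond, had a difference of 0.52 with separate groups. NSDHL, which removes the oxidised methyl groups together with HSD17B7, differed by 0.18, and DHCR7, which reduces the last double bond of one route, by 0.21, and in both genes vector-only replicate 1 equalled H1.3 replicate 1. The cluster shared by HSD17B7 and its pseudogene HSD17B7P2 measured 6.79 and 7.22 in the arrays labelled H1.3 and 6.72 and 6.63 in the vector-only arrays, a difference of 0.33 that cannot be given to either gene.

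The 2 sterol genes with separate groups in the other direction lie on chromosome 11. TM7SF2, one of the sterol reductases that act at carbon 14, measured 8.96 and 9.09 in the arrays labelled H1.3, against 9.90 and 9.60 in the vector-only arrays. Its difference was -0.73 ± 0.14 (SE, limma adjusted p = 0.0933). LBR, another of these reductases, is among the other sterol genes described below. LBR measured 9.98 and 9.94 in the arrays labelled H1.3, against 9.60 and 9.60 in the vector-only arrays. Its difference was 0.36 ± 0.11 (SE, limma adjusted p = 0.255) with separate groups, so TM7SF2 and LBR differed in opposite directions. SC5D, a desaturase of a late ring step, measured 8.22 and 8.55 in the arrays labelled H1.3, against 8.91 and 8.73 in the vector-only arrays, a difference of -0.44 ± 0.15 (SE, limma adjusted p = 0.313).

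The differences of neighbouring genes were set beside those of the members, as the median over the 15 nearest named genes on each side. Around SC5D that median was -0.04, which left SC5D at -0.40 relative to it. Among neighbours at or above the median level, a choice made after seeing the data, the median was -0.59 and SC5D was at 0.15 relative to it, so its sign depended on which neighbours were used. TM7SF2 was at -0.67 relative to all named neighbours and at -0.59 relative to those at or above the median level. DHCR7 also lies on chromosome 11 and had a positive difference of 0.21. It was at 0.335 relative to all named neighbours and at 0.345 relative to those at or above the median level. On chromosome 1, FDPS was at 0.11 relative to all named neighbours, whose median was 0.19, and PMVK at -0.22, with neighbours at 0.18.

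Promoter sequence is shown for the sterol gene that passed and for the one with the lowest difference, because these 2 genes mark the ends of the range of that branch. It comes from RefSeq on GRCh38.p14, sense strand of the gene, and capitals mark the pentamer CCAAT on either strand, the letters read by the factor NF-Y, a common partner of SREBPs. No source used here names the build behind the array's probes. MSMO1 (chr4:165327479-165327644, plus strand) and TM7SF2 (chr11:65111717-65111842, plus strand) are drawn from the 250 bases before the annotated start.
MSMO1: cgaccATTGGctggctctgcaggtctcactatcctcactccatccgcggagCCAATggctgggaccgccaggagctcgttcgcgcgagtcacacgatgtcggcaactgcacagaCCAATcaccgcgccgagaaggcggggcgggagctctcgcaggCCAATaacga
TM7SF2: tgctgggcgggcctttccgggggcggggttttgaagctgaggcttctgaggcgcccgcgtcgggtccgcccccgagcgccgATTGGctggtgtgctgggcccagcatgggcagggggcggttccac
The MSMO1 stretch, of 166 bases, holds CCAAT 4 times and the TM7SF2 stretch, of 126 bases, holds it once. Whether the number of CCAAT goes with the difference was not tested. CYP51A1, at a difference of 0.86, held no CCAAT in the window, and NSDHL, at 0.18, held several. Of the measured members, 30 had promoter sequence. Of these genes, 22 (73.3%) held CCAAT on either strand in the 250 bases before a start. The share was 40.4% in the 14239 measured genes with sequence and 37.0% in all 27305 genes with sequence. GGGCGG, the GC box, was in 28 of the 30 (93.3%), against 63.7% of measured genes and 46.2% of all genes with sequence. These shares describe letters in a window and say nothing of binding. Genes with several annotated starts had more windows, with 46 for the 30 members and 35116 for the 27305 genes. The genes compared were not matched for level. Of the 33 measured members, 1 lay below the median level of the named clusters, against 9110 of all 18417 genes.

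STARD4, a carrier that moves cholesterol between membranes, measured 8.94 and 9.11 in the arrays labelled H1.3, against 8.44 and 8.02 in the vector-only arrays. The difference was 0.80 ± 0.16 (SE, limma adjusted p = 0.108). The lower of the first pair stood 0.50 above the higher of the second.

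Over the 16 genes of the sterol branch the median difference was 0.45, with 13 positive and 3 negative. Leaving out vector-only replicate 1 gave 0.53, and leaving out replicate 2 of that group gave 0.33. Subtracting the neighbour median from each gene left 0.43 with all named neighbours and 0.46 with those at or above the median level.

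**Figure D2:**
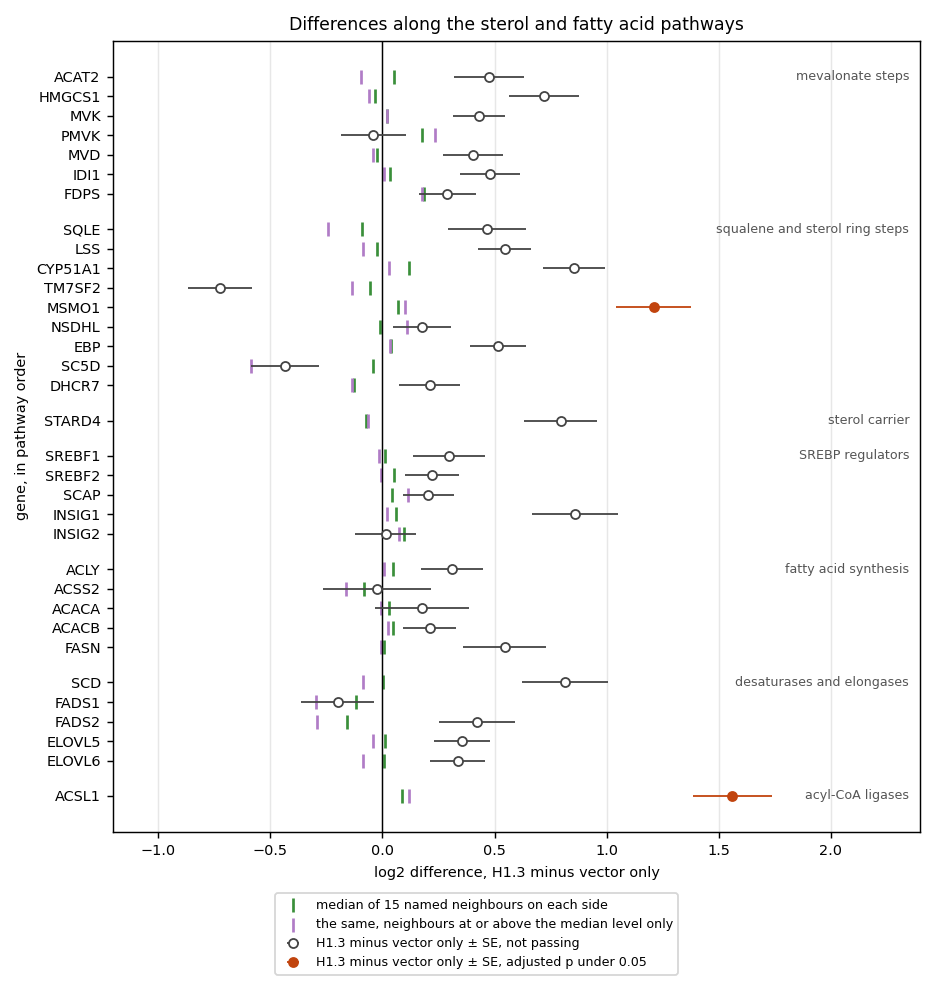
Log2 difference of each gene, arrays labelled H1.3 minus vector-only arrays, with its standard error from limma, in pathway order. Filled points passed at an adjusted p under 0.05, which MSMO1 (1.21) and ACSL1 (1.56) did, green ticks give the median difference of 15 named neighbours on each side, and purple ticks that of neighbours at or above the median level only; for SC5D they lie at -0.04 and -0.59.

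All 5 SREBP regulators had a positive difference and none passed. INSIG1, the retention protein that SREBPs themselves induce, measured 8.60 and 9.18 in the arrays labelled H1.3, against 8.07 and 7.99 in the vector-only arrays. Its difference was 0.86 ± 0.19 (SE, limma adjusted p = 0.123), and was 0.57 without H1.3 replicate 2 and 1.15 without H1.3 replicate 1. The 2 arrays labelled H1.3 were 0.58 apart, and the lower of them lay 0.53 above the higher vector-only array. INSIG2, its relative, measured 8.08 and 8.12 in the arrays labelled H1.3 and 8.23 and 7.94 in the vector-only arrays, and at a difference of 0.02 its groups overlapped.

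The genes for the factors and their escort had smaller differences. SREBF2, which encodes SREBP-2, measured 8.81 and 8.98 in the arrays labelled H1.3, against 8.69 and 8.66 in the vector-only arrays, a difference of 0.22 ± 0.12 (SE, limma adjusted p = 0.567). SREBF1, which encodes SREBP-1, measured 8.36 and 8.70 in the arrays labelled H1.3 and 8.10 and 8.37 in the vector-only arrays, a difference of 0.30 ± 0.16 (SE, limma adjusted p = 0.561) with overlapping groups. SCAP differed by 0.21 with separate groups. SREBP activity is set by cleavage of the protein, which these arrays do not measure.

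The sterol regulatory element, searched as TCACNCCAC on both strands, was found before a start of 2 of the 30 members with promoter sequence, SREBF2 and ACSL1. It was in 1.19% of measured genes and in 1.09% of all genes with sequence. Both stretches are shown because SREBP-2 is the factor of the sterol branch and ACSL1 is the member with the largest difference. Capitals mark the match, read on the sense strand of SREBF2 (chr22:41832932-41833020, plus strand) and on the opposite strand of ACSL1 (chr4:184805747-184805803, minus strand), where it lies before one of several annotated starts of the gene. Sequence is from RefSeq on GRCh38.p14.
SREBF2: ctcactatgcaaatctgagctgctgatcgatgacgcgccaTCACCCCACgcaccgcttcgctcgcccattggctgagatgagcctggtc
ACSL1: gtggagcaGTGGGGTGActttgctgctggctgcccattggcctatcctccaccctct
The array value does not tell which start of ACSL1 was used. The palindrome CACGTG, the E-box that SREBPs can also bind, was in 4 of the 30 genes (13.3%), namely ELOVL5, INSIG1, SC5D and SCAP. The share was 9.80% in measured genes and 7.73% in all genes with sequence. No other of the 30 held TCACNCCAC in the window, which says only that these letters are not in it. ACAT2, SQLE and FASN had no promoter sequence here and were not searched.

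In the fatty acid branch, 9 of 11 measured genes had a positive difference, with a median of 0.34, and ACSL1 passed. ACSL1 measured 9.14 and 9.39 in the arrays labelled H1.3, against 7.93 and 7.48 in the vector-only arrays. The groups were 1.21 apart at their nearest values. The difference was 1.56 ± 0.18 (SE) with a limma adjusted p of 0.0264, the largest difference among the 33 genes. The call was lost with all clusters tested (adjusted p = 0.171), with a replicate block (0.181) and with any 1 array left out (0.433 to 0.802), where the difference ran from 1.34 to 1.79.

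The genes that make palmitate were less even. FASN, the fatty acid synthase, measured 10.39 and 10.77 in the arrays labelled H1.3, against 9.83 and 10.24 in the vector-only arrays. Its difference was 0.55 ± 0.19 (SE, limma adjusted p = 0.305). ACLY, which cleaves citrate to supply acetyl-CoA, measured 9.57 and 9.79 in the arrays labelled H1.3, against 9.27 and 9.47 in the vector-only arrays, a difference of 0.31 ± 0.14 (SE, limma adjusted p = 0.455). The groups were separate by 0.15 in FASN and by 0.10 in ACLY, less than the distance between replicates of either group.

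The acetyl-CoA carboxylases make malonyl-CoA. ACACA, the cytosolic one, measured 8.17 and 8.66 in the arrays labelled H1.3 and 8.01 and 8.47 in the vector-only arrays, a difference of 0.18 with overlapping groups. ACACB, the mitochondrial one, measured 6.40 and 6.52 in the arrays labelled H1.3 and 6.25 and 6.25 in the vector-only arrays, a difference of 0.21. It was the single member below the median level of the named clusters. ACSS2, which makes acetyl-CoA from acetate, measured 8.09 and 8.80 in the arrays labelled H1.3 and 8.28 and 8.66 in the vector-only arrays. At -0.03 ± 0.24 (SE, limma adjusted p = 0.984) both vector-only values lay between those of the arrays labelled H1.3.

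Among desaturases and elongases, SCD, which makes oleate from stearate, measured 11.48 and 11.97 in the arrays labelled H1.3, against 10.75 and 11.07 in the vector-only arrays. Its difference was 0.82 ± 0.19 (SE), or 1.76-fold, with a limma adjusted p of 0.137. ELOVL5, an elongase of polyunsaturated fatty acids, measured 10.38 and 10.20 in the arrays labelled H1.3, against 9.98 and 9.89 in the vector-only arrays, a difference of 0.36 ± 0.12 (SE, limma adjusted p = 0.319). ELOVL6, the elongase that turns palmitate into stearate, differed by 0.34 with separate groups.

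FADS1 and FADS2, the neighbouring delta-5 and delta-6 desaturase genes on chromosome 11, had differences of opposite sign, though the sign of FADS1 was not settled. FADS2 measured 10.01 and 10.48 in the arrays labelled H1.3, against 9.77 and 9.88 in the vector-only arrays, a difference of 0.42 ± 0.17 (SE, limma adjusted p = 0.404). FADS1 measured 9.00 and 9.43 in the arrays labelled H1.3 and 9.35 and 9.48 in the vector-only arrays, a difference of -0.20 ± 0.16 (SE, limma adjusted p = 0.725). Neither passed, and the groups were separate in FADS2 and overlapped in FADS1. Their neighbours at or above the median level had medians of -0.29 around FADS2 and -0.30 around FADS1, so relative to them, a choice made after seeing the data, FADS2 was at 0.71 and FADS1 at 0.10. Relative to all named neighbours FADS2 was at 0.58 and FADS1 at -0.08. FADS2 differed by 0.19 without H1.3 replicate 2 and by 0.66 without H1.3 replicate 1. For FADS1 these differences were -0.42 and 0.015, so its sign changed with the array left out.

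The spread between replicate arrays differed between the branches. In the sterol branch vector-only replicate 2 was the lower of its pair in 15 of 16 genes and tied in MVD, with a median gap of -0.22, while H1.3 replicate 2 was the higher of its pair in 11 of 16, with a median gap of 0.17. In the fatty acid branch replicate 2 was the higher array in both groups in 7 of 11 genes, ACLY, ACSS2, ACACA, FASN, SCD, FADS1 and FADS2. The gap of ACSS2 was 0.71 in the arrays labelled H1.3 and 0.38 in the vector-only arrays, and that of FASN was 0.38 in the arrays labelled H1.3 and 0.41 in the vector-only arrays. SREBF1 went with these genes, at 0.34 in the arrays labelled H1.3 and 0.27 in the vector-only arrays, and ACSL1 did not, at 0.25 in the arrays labelled H1.3 and -0.45 in the vector-only arrays. Replicate 2 was the higher array in both groups in 0 of 16 sterol genes, and in 21.7% of all genes. Of all 18417 genes, vector-only replicate 2 was the lower of its pair in 8834, and H1.3 replicate 2 the higher of its pair in 8215. The arrays share one normalization, and the labels name no batch behind the replicate numbers, so the part of culture or handling in these gaps was not tested.

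**Figure D3:**
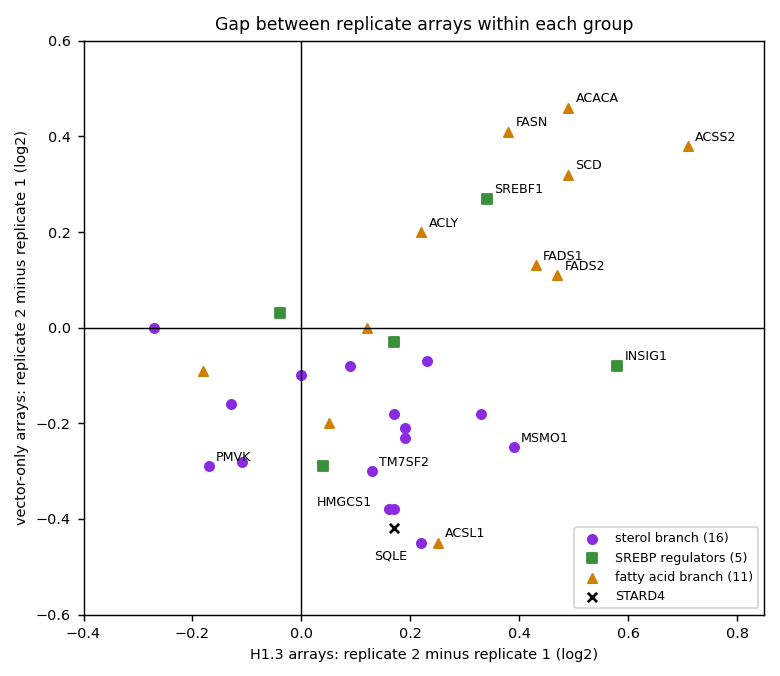
Gap between the replicate arrays of each group for the 33 genes, as replicate 2 minus replicate 1 in log2, with the arrays labelled H1.3 on the x axis and the vector-only arrays on the y axis. Orange triangles of the fatty acid branch lie in the upper right for 7 of 11 genes, and no purple point of the sterol branch lies there.

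Other genes of lipid metabolism, from lists set beside the members, had medians closer to 0 than the sterol and fatty acid branches, and none of 74 passed in limma, with 17 at an unadjusted p under 0.05 in either direction, against 11.5% of all clusters. Among 24 further genes that build or activate fatty acids, 19 differences were positive, with a median of 0.23. ACSL4, a ligase that prefers arachidonate, measured 8.47 and 8.69 in the arrays labelled H1.3, against 7.83 and 7.86 in the vector-only arrays, a difference of 0.74 ± 0.13 (SE, limma adjusted p = 0.0775). ELOVL7, an elongase of long-chain fatty acids, measured 8.63 and 8.39 in the arrays labelled H1.3, against 7.87 and 7.69 in the vector-only arrays, a difference of 0.73 ± 0.14 (SE, limma adjusted p = 0.0903). Both were separate between groups, and at unadjusted p under 0.05 the list had 9 higher and 0 lower genes, against 5.21% and 6.34% of all clusters. The largest difference of the list was that of THRSP, at 2.225 ± 0.43 (SE, limma adjusted p = 0.0922). THRSP measured 9.96 and 9.77 in the arrays labelled H1.3, against 8.41 and 6.87 in the vector-only arrays.

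The 13 other genes of the sterol and SREBP pathways did not share the members' direction, with 4 positive, 9 negative and a median of -0.10. ERG28, a scaffold of the sterol C4 demethylation enzymes in yeast, differed by 0.50 (limma adjusted p = 0.192) and ERLIN2, part of the complex that degrades a sterol enzyme, by -0.55 (limma adjusted p = 0.210). The median of the neighbours of ERLIN2 was -0.31 over all named ones and -0.53 over those at or above the median level. The list holds regulators and electron carriers as well as enzymes. Among 17 genes of cholesterol export, storage and LXR response, the oxysterol-activated receptors' targets, the median was 0.07. ABCG1, an exporter of cholesterol, measured 5.18 and 5.11 in the arrays labelled H1.3, against 5.74 and 5.61 in the vector-only arrays, a difference of -0.53 ± 0.12 (SE, limma adjusted p = 0.125). LIPA, the lysosomal lipase that frees cholesterol from its esters, differed by 0.47 (limma adjusted p = 0.260).

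Genes of fatty acid oxidation, the route that breaks fatty acids down, had a median of -0.04 over 20 genes, with 8 positive and 12 negative. DECR1, which prepares unsaturated fatty acids for breakdown, differed by -0.52 (limma adjusted p = 0.389). CPT1A, the gate of fatty acids into mitochondria, differed by -0.26 (limma adjusted p = 0.471). Housekeeping genes had a median of -0.10 over 12 genes, with 9 negative.

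**Figure D4:**
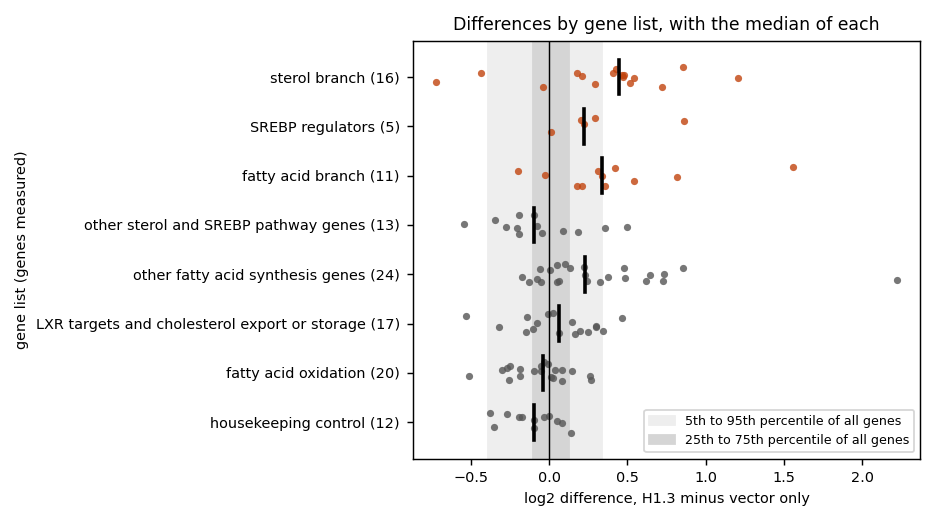
Log2 difference of each gene, arrays labelled H1.3 minus vector-only arrays, by gene list, with a bar at each list's median and the spread of all genes in grey. The medians are 0.45 in the sterol branch, 0.22 in the SREBP regulators and 0.34 in the fatty acid branch, and lie between -0.10 and 0.23 in the other lists.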

How the data were processed

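Values are log2, as deposited by the authors, for 33297 transcript clusters on each array. The submitters' processing notes name RMA and Affymetrix Expression Console, without versions. RMA as published subtracts background, equalises array distributions and summarises probes. Probe intensities were not used here. Gene symbols came from the platform annotation, updated through RefSeq (GRCh38.p14): 19460 clusters had 1 symbol, 1754 several, and 12083 were unnamed here. A gene with several single-symbol clusters is represented by that of highest mean.

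The arrays labelled H1.3 were compared with the vector-only arrays by limma 3.58.1 in R 4.3.3 (lmFit, eBayes, two-sided), with Benjamini-Hochberg adjustment over 21214 named clusters and a threshold of 0.05. The fit had 2 residual and 5.16 prior degrees of freedom, the median SE was 0.13, and the number of arrays limits the precision. It was tested on simulated data. Branch medians carry no test. All measured members are named. From other lists, the passing genes or the 2 of smallest p are named, and LBR and THRSP besides. Alternatives changed moderation, scaling, filter, clusters tested, threshold, cluster choice, neighbours and arrays used. Members and lists were chosen with earlier results of these data known.

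Replicate gaps of the 2 groups correlated at 0.06 over named clusters, so replicate numbers were not taken as pairs. That correlation does not settle pairing for single genes. With a replicate block the SE of FASN was 0.11 instead of 0.19, and that of MSMO1 was 0.19 instead of 0.17. Motifs were searched in the 250 bases before each start in Python 3.11.15; figures used matplotlib 3.10.9.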

Additional observations from a re-analysis of the deposited data

How the results depend on the processing

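Of the 33 genes, 27 kept their sign in every alternative run and 6 did not. Leave-one-out fits gave differences of -0.07 to 0.42 for ACACA, -0.38 to 0.33 for ACSS2, -0.42 to 0.015 for FADS1, -0.13 to 0.16 for INSIG2 and -0.19 to 0.11 for PMVK. A second quantile normalization put ACSS2 at 0.00125. Relative to neighbouring genes ACSS2 was at 0.058 and INSIG2 at -0.08, and relative to neighbours at or above the median level, an alternative chosen after seeing the data, ACSS2 was at 0.14, FADS1 at 0.10, INSIG2 at -0.058 and SC5D at 0.15.

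Members called higher, 2 in the main test, were 4 with a robust intensity trend, 1 with arrays at one median, 1 without clusters below the median level, 0 with all clusters tested and 0 to 0 in leave-one-out fits, where a lone array is assumed to vary like the other group. Members called lower, 0 in the main test, were 1 (TM7SF2) with the trend and 1 at an adjusted p under 0.10. Genes called higher in the other lipid lists were 2 with the trend and 4 at 0.10. Higher and lower clusters over the whole table, 51 and 56, became 107 and 138 with the trend, 19 and 31 when arrays were set to one median, 29 and 38 when quantile-normalized again, 6 and 19 without dim clusters, 1 and 3 with all clusters, 135 and 176 at 0.10, and 0 to 0 in leave-one-out fits. The sterol median ran from 0.33 to 0.53 in leave-one-out fits, the fatty acid median from 0.20 to 0.42 and the regulator median from 0.14 to 0.31. The cause of these shifts was not tested, beyond the smaller or larger number of clusters or arrays that some settings use.

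With the replicate block, 0 members and 0 clusters were higher and 0 clusters lower in limma, with 2195 clusters at an unadjusted p under 0.05. In this balanced design the block leaves every difference as it is by construction. Leaving out 1 array moved the difference of 17 of the 33 measured members by over 1.5 times. MSMO1 and ACSL1 were among the 16 that it did not. With 2 arrays in a group, this shift is set by the gap between replicates, which the main test also uses. The steadiness of these 2 genes is therefore not separate evidence for their calls.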
